A study of Mus musculus with 18 samples.

Results

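Prostate lineage factors and androgen-responsive genes were followed through knockdown of Rnf185, a ubiquitin ligase anchored in the membrane of the endoplasmic reticulum, in MPC3 mouse prostate cancer cells. The 8 genes were chosen by symbol and mapped to Ensembl identifiers among the 47643 genes of the deposited count table: Foxa1, Gata2, Sox2, Sox9, Trp63, Tmprss2, Fkbp5 and Psca. Polyadenylated RNA was sequenced from 18 libraries in 3 groups of 6, namely control cells (titled plko), cells with the hairpin shRNF185.1 and cells with the hairpin shRNF185.3. A hairpin of this kind is expressed in the cell and lowers the messenger RNA it matches. Each of 3 batches named in the labels holds 2 libraries of every group, and the design text gives the purpose as a comparison of knockdown with control. All groups are the same cell line, and the labels give no engineered allele, hormone, drug or time point that would separate them beyond the hairpin. Where the 2 hairpins differ, an effect through Rnf185 and an effect of either hairpin on other transcripts cannot be told apart.

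Androgens drive the luminal program of the prostate. FOXA1 opens chromatin for hormone-activated transcription factors, and GATA2 acts beside them at many sites. SOX9 and p63, the product of Trp63, are known from the progenitor and basal cells of the gland, while SOX2 is a stem cell factor known from basal and neuroendocrine cells. Tmprss2 (a cell-surface serine protease) and Fkbp5 (a cochaperone of HSP90 that also responds to glucocorticoids) are classical androgen targets, and Psca encodes a small cell-surface protein anchored by a lipid.

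Total counts per library ranged from 22027395 to 43379662. Rnf185 was at 35.9 ± 1.96 CPM (counts scaled to library size) in control (SD, n = 6 in each group). It fell to 5.81 ± 0.582 CPM under shRNF185.1 and 5.80 ± 0.546 CPM under shRNF185.3. Every hairpin library lay below every control library, but the hairpin groups overlapped. Rnf185 thus checks hairpin against control labels and cannot tell the hairpins from each other. Epithelial keratin RNA was abundant, with Krt8 at 1197 ± 98.2 CPM in control, but Epcam and Cldn7 stayed under 1 CPM in every library, and Pbsn, Msmb and Spink1 had 0 counts. Hoxb13, a prostate homeobox factor, was at 56.5 ± 10.3 CPM in control. Of the basal keratins, Krt14 was at 26.5 ± 6.41 CPM in control while Krt5 had at most 3 counts in a library. The labels name the libraries of a group as replicates without saying that they are separate cultures, so the p-values measure the spread between these libraries.

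In control cells the 8 genes fell into 3 tiers of level per length. Sox9 (16.9 ± 3.03 CPM per kilobase of exon), Sox2 (14.4 ± 1.53), Foxa1 (12.4 ± 2.01) and Fkbp5 (8.27 ± 0.711) made up the high tier. The libraries of Sox9, Sox2 and Foxa1 overlapped in that order, whereas every Fkbp5 library lay below the lowest Foxa1 library. Trp63 (0.331 ± 0.0829 CPM per kilobase) and Gata2 (0.270 ± 0.0299) formed a low tier in which the libraries overlapped. Tmprss2 was far lower at 0.0412 ± 0.0204 CPM per kilobase, and Psca was represented by 1 count in the 6 control libraries together.

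**Figure D1:**
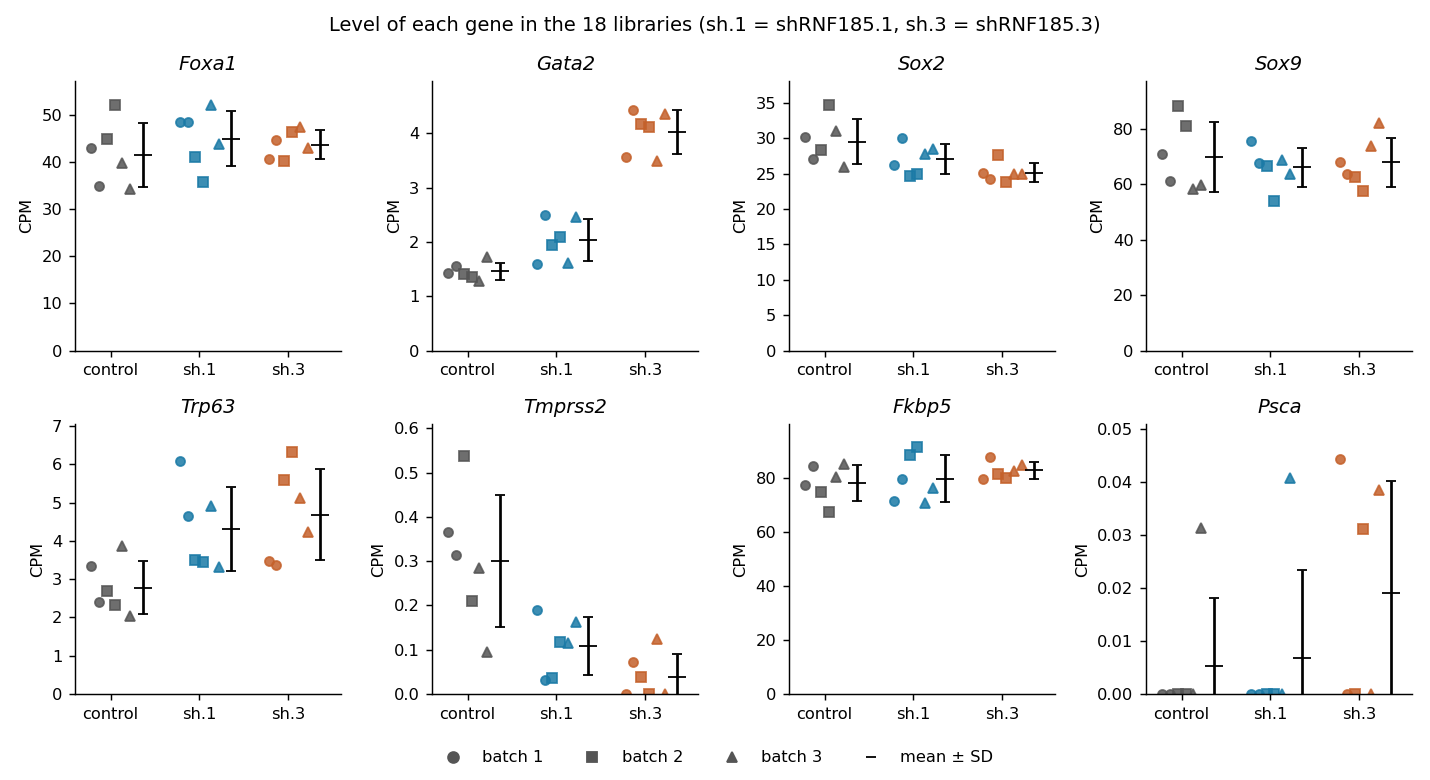
Level of each of the 8 genes in CPM, counts scaled to library size (linear axis from 0, a separate scale for each gene) in the 18 libraries, by group, with the batch shown by the symbol and the mean ± SD (n = 6) beside the points. The Gata2 libraries of shRNF185.3 (3.49 to 4.43 CPM) lie above all others, 5 of the 6 control libraries of Tmprss2 lie above every hairpin library, and Foxa1, Sox9 and Fkbp5 overlap between the 3 groups.

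Of the 8 genes, 6 passed the filter on low counts, each with at least 34 counts in every library, and entered the test across 14309 genes. With shRNF185.1, 2 of these 6 were called, Gata2 and Trp63, both higher, against 28.9% of all genes tested that were called in that comparison. With shRNF185.3, 3 were called (Gata2 and Trp63 higher, Sox2 lower), against 27.3% of all genes. The same 3 were called for the mean of both hairpins, where the background was 32.9%. The call of Sox2 for that mean was lost in 5 of 15 alternatives (each batch left out, the replicate block and summed libraries), with edgeR adjusted p-values up to 0.135. Between the hairpins only Gata2 was called, against 14.7%. Without batch 1 none of the 6 was called under shRNF185.1, and without batch 3 only Gata2 was. The number of these genes called was thus near the share among all genes or too small to be set apart from it, and it says nothing particular about them as a group. Their median log2 fold change was 0.07 under shRNF185.1 and 0.08 under shRNF185.3, and the median over all genes tested was -0.02 in both comparisons. Both comparisons with control use the same 6 control libraries.

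**Figure D2:**
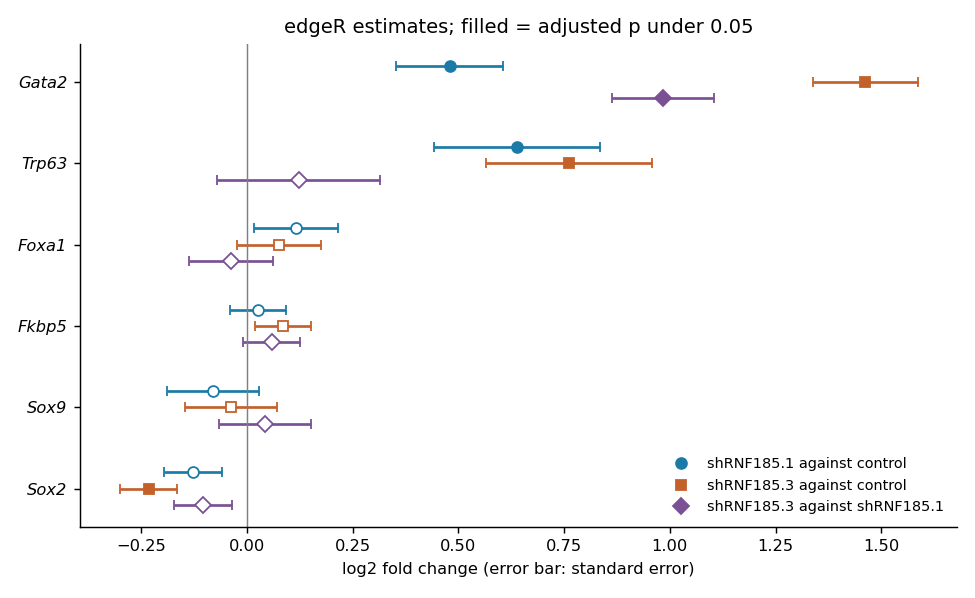
Log2 fold changes (edgeR estimate ± standard error) of the 6 genes tested, for each hairpin against control and for shRNF185.3 against shRNF185.1, with filled symbols where the adjusted p is under 0.05. Gata2 stands at 0.48 and 1.46 against control, Trp63 at 0.64 and 0.76, and the other genes lie within 0.25 of 0.

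Among the transcription factors that act in the androgen response, Gata2 rose and Foxa1 did not pass the test. Gata2 (ENSMUSG00000015053, chr6:88193891-88207032 on the plus strand of GRCm38, 5398 exonic bases) was measured at 1.28 to 1.73 CPM in control (median 1.42), 1.60 to 2.49 CPM under shRNF185.1 (median 2.02) and 3.49 to 4.43 CPM under shRNF185.3 (median 4.14). The shRNF185.3 libraries stood apart from both other groups, which overlapped each other at their edges. These levels rest on few reads, between 34 and 58 counts in a control library and between 80 and 132 in a shRNF185.3 library.

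The group means of Gata2 were 1.46 ± 0.161, 2.04 ± 0.390 and 4.02 ± 0.402 CPM (SD, n = 6 each). The log2 fold change against control was 0.48 (SE 0.13, edgeR quasi-likelihood test with Benjamini-Hochberg adjustment, adjusted p 0.00745) under shRNF185.1 and 1.46 (SE 0.12, adjusted p 8.77e-08) under shRNF185.3, or 1.39-fold and 2.76-fold. The hairpins themselves differed by 0.98 (SE 0.12, adjusted p 1.43e-05). Gata2 was the only one of the 6 genes whose groups did not overlap, which held for shRNF185.3 against control (as in 13.3% of all genes tested) and for shRNF185.3 against shRNF185.1 (8.25%), while none of the 6 was free of overlap for shRNF185.1 against control (12.8%).

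Within batches 1, 2 and 3 the log2 difference in Gata2 from control was 1.37, 1.54 and 1.35 under shRNF185.3 and 0.40, 0.53 and 0.41 under shRNF185.1. The direction was therefore the same in each batch with either hairpin. The call under shRNF185.1 was lost without batch 1 (0.49, edgeR adjusted p 0.0574) and without batch 2 (0.45, adjusted p 0.0774), whereas the call under shRNF185.3 was kept under all 16 alternatives, with log2 values from 1.03 to 1.50.

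Markers of other cell types also differed between the groups. The summed level of 6 fibroblast markers was 511 to 598 CPM in control, 411 to 745 CPM under shRNF185.1 and 827 to 1309 CPM under shRNF185.3, carried by Col1a2, Col1a1, Pdgfra and Dcn, while Lum stayed under 1 CPM and Thy1 had at most 2 counts. These markers did not move together: Col1a1 rose by 1.29 and 2.19 on the log2 scale (edgeR adjusted p 0.00223 and 1.9e-05), whereas Dcn fell by 2.11 under shRNF185.1 (adjusted p 2.03e-05) and stood at -0.50 (adjusted p 0.182) under shRNF185.3. Col1a2 fell by 0.56 under shRNF185.1 (adjusted p 0.00306) and rose by 0.55 under shRNF185.3 (adjusted p 0.00379). For 5 smooth muscle markers the sums were 7.15 to 48.1, 21.5 to 49.4 and 28.8 to 120 CPM, with Des and Myh11 under 1 CPM in every library. Leukocyte markers summed to at most 5.08 CPM and endothelial markers to at most 1.70 CPM. The part of these differences in the Gata2 result was not tested. In bulk RNA, fewer cells of a type and less RNA per cell cannot be told apart.

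Foxa1 (ENSMUSG00000035451, chr12:57540628-57546916 on the minus strand, 3327 exonic bases) was at 41.4 ± 6.69 CPM in control, 44.9 ± 5.87 CPM under shRNF185.1 and 43.6 ± 3.02 CPM under shRNF185.3 (SD, n = 6 each). Control libraries ran from 34.1 to 52.0 CPM and both hairpin groups lay within or at the edge of that range. The log2 fold changes of 0.12 (95% interval -0.08 to 0.31, edgeR adjusted p 0.415) and 0.08 (-0.12 to 0.27, adjusted p 0.610) were smaller than the spread between libraries. The batches went in different directions: under shRNF185.1 the log2 difference was 0.32 in batch 1, -0.33 in batch 2 and 0.37 in batch 3. Without batch 2 the value for shRNF185.1 was 0.35 and was called (adjusted p 0.00515). The same value was -0.01 (adjusted p 0.967) when batch 3 was left out.

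The sequence before the start of transcription is shown for Gata2, Foxa1, Tmprss2 and Fkbp5, the regulators and targets of the androgen response, because motifs of the factors described here can be read there. Windows came from a table of RefSeq promoters on GRCm38.p6, in which 5 of the 8 genes were matched by symbol, and Sox9, Trp63 and Psca were not matched in that table. The window of Sox2 and a second window of Gata2 were searched but are not printed. Each run is the 250 bases before the start, written 5′ to 3′ on the strand of the gene, and capitals mark matches to the motifs searched.
Gata2 (chr6:88193641-88193890, plus strand): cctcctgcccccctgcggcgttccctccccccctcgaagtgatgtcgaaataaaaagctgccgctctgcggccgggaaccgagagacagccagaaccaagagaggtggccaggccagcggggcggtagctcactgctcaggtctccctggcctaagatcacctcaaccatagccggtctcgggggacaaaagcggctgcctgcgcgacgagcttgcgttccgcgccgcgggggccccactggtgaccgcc
Foxa1 (chr12:57546112-57546361, minus strand): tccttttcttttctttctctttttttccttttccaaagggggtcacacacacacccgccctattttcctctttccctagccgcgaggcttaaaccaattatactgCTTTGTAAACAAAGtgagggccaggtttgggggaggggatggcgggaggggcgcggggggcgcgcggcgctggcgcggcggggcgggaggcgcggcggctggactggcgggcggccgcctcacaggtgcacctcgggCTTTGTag
Tmprss2 (chr16:97611196-97611445, minus strand): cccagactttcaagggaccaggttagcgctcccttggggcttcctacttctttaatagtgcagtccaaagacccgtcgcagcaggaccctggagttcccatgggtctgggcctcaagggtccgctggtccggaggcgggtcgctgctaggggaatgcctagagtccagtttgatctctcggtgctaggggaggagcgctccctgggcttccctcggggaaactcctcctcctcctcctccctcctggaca
Fkbp5 (chr17:28486150-28486399, minus strand): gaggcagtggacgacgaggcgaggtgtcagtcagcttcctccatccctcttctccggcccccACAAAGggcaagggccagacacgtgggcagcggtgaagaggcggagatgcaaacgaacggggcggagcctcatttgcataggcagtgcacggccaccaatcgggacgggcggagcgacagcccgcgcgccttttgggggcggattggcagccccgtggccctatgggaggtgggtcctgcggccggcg

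Short motifs were searched on both strands. For steroid hormone receptors the letters were those of a single arm of their palindromic element, AGAACA, which 16.1% of all 32817 promoter windows of this length held. The forkhead letters TGTTTAC were held by 3.16% of all windows. The GATA letters were AGATAA, held by 9.99%. The letters for SOX factors were ACAAAG, held by 16.5%. The Foxa1 window held a forkhead match from 141 to 135 bases before the start, overlapped on both sides by SOX matches, and another SOX match from 8 to 3 bases before it. The Fkbp5 window held a SOX match, as did that of Sox2 (from 206 to 201 bases before the start). Both windows of Gata2 and that of Tmprss2 held none of the 4 motifs. A match is a description of letters and shows no binding. The start used for Fkbp5 lies 31378 bases inside the gene's outermost start in GENCODE M21, so other starts of that gene were not covered. The start used for Foxa1 lies 805 bases inside its outermost start. For Sox2 the start lies 410 bases before the GENCODE start, and the bases after it were not found in a GENCODE transcript of the gene. The second window of Gata2 lies wholly within exons of that gene.

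The SOX factors of the stem and progenitor compartments moved little. Sox2 (ENSMUSG00000074637, chr3:34650405-34652461, plus strand, a gene of 2057 exonic bases) was at 26.0 to 34.7 CPM in control (median 29.2), 24.7 to 30.1 CPM under shRNF185.1 (median 27.0) and 23.8 to 27.7 CPM under shRNF185.3 (median 24.9). The groups overlapped, with the shRNF185.3 libraries mostly below the control libraries. Its fold change on the log2 scale came to -0.13 (SE 0.07, edgeR adjusted p 0.172) under shRNF185.1 and -0.23 (SE 0.07, adjusted p 0.0155) under shRNF185.3, or 85.1% of control. By batch, in order, it was -0.21, -0.29 and -0.18 under shRNF185.3. The direction held in every batch, but the call was lost without batch 1 (-0.24, adjusted p 0.0968) and without batch 3 (-0.25, adjusted p 0.0699). The difference between the hairpins was -0.10 (95% interval -0.24 to 0.03, adjusted p 0.385), so a change in Sox2 particular to shRNF185.3 was not shown.

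Sox9 (ENSMUSG00000000567, chr11:112782224-112787760, plus strand, 4135 exonic bases) had the widest spread among the more abundant genes in control, from 58.2 to 88.2 CPM with a median of 65.9. The medians under shRNF185.1 and shRNF185.3 were 67.1 and 65.7 CPM, and the 3 groups overlapped. Log2 fold changes were -0.08 (95% interval -0.29 to 0.13, edgeR adjusted p 0.623) and -0.04 (-0.25 to 0.18, adjusted p 0.832). The 2 highest control libraries were those of batch 2, where the log2 difference was -0.50 with either hairpin. In batch 1 it was 0.12 under shRNF185.1 and 0.00 under shRNF185.3, and in batch 3 it was 0.17 and 0.41. Without batch 2 the direction turned, at 0.14 (adjusted p 0.212) and 0.20 (adjusted p 0.0983).

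**Figure D3:**
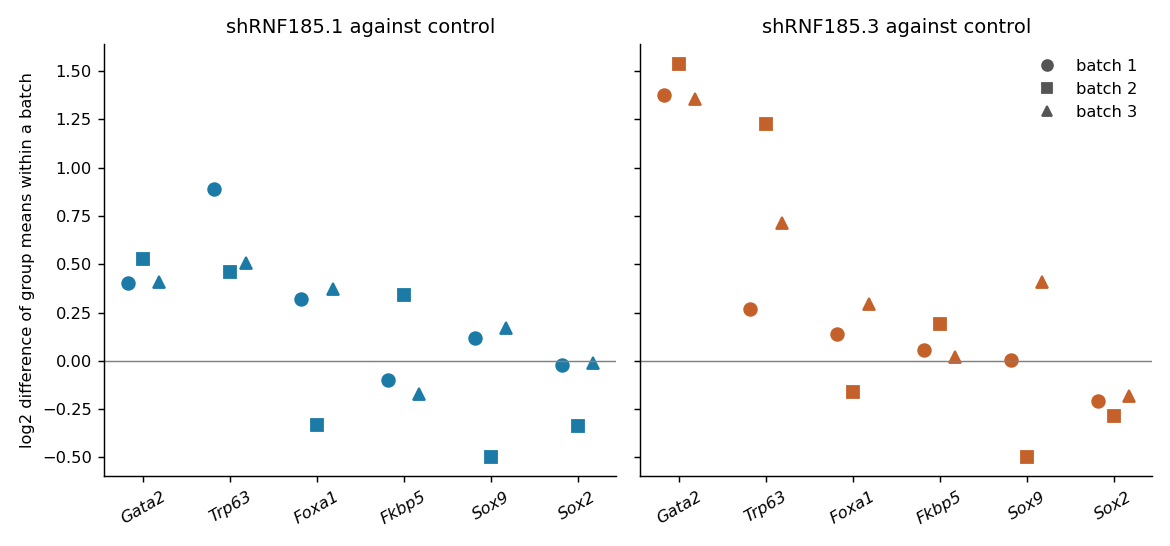
Log2 difference of group means within each batch (2 libraries of each group) for the 6 genes tested, for shRNF185.1 (left) and shRNF185.3 (right) against control. Gata2 and Trp63 lie above 0 in all 3 batches with both hairpins, while Foxa1 and Sox9 lie below 0 in batch 2 and at or above it in the other batches.

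Trp63, the basal factor, rose with both hairpins. Trp63 (ENSMUSG00000022510, chr16:25683763-25892102, plus strand, 8391 exonic bases over 8 transcripts) was at 2.04 to 3.87 CPM in control (median 2.54), 3.31 to 6.09 CPM under shRNF185.1 (median 4.08) and 3.36 to 6.31 CPM under shRNF185.3 (median 4.67). Control libraries were the lowest as a group, but the highest of them, replicate 5, lay inside the range of both hairpin groups. Control replicate 1, at 3.355 CPM, also lay above the lowest shRNF185.1 library, at 3.313 CPM. The means were 2.78 ± 0.696, 4.32 ± 1.10 and 4.68 ± 1.19 CPM (SD, n = 6 each).

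The log2 fold change of Trp63 was 0.64 (SE 0.20, edgeR adjusted p 0.0195) under shRNF185.1 and 0.76 (SE 0.20, adjusted p 0.00702) under shRNF185.3. The hairpins did not separate from each other (0.12, 95% interval -0.26 to 0.50, adjusted p 0.784). Within batches 1, 2 and 3 the log2 difference was 0.89, 0.46 and 0.51 under shRNF185.1 and 0.27, 1.22 and 0.71 under shRNF185.3. The call under shRNF185.1 was lost without batch 1 (0.48, adjusted p 0.152), without batch 3 (0.72, adjusted p 0.0553) and with the libraries of a group and batch summed (0.66, adjusted p 0.0659). The call under shRNF185.3 was lost without batch 2 (0.47, adjusted p 0.140). The table counts whole genes, so the long and the amino-terminally truncated forms of p63 were not separated.

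Of the classical androgen targets, Tmprss2 was lower with both hairpins at very low counts, Fkbp5 did not pass the test, and Psca was at the limit of detection. Tmprss2 (ENSMUSG00000000385, chr16:97564682-97611195, minus strand, 7302 exonic bases) was under the count filter and did not enter the test across genes. The control libraries held 3 to 13 counts and summed to 53, the shRNF185.1 libraries 1 to 5 and summed to 17, and the shRNF185.3 libraries 0 to 3 and summed to 6. In shRNF185.3, 3 of the 6 libraries had no count. The lowest control library, with 3 counts, lay inside the range of both hairpin groups.

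Scaled to depth, Tmprss2 was at 0.301 ± 0.149, 0.109 ± 0.0650 and 0.0391 ± 0.0509 CPM (SD, n = 6 each), against 0.0701 to 0.133 CPM for the 3 counts taken as the floor of a library. The summed level was 0.367 of control under shRNF185.1 (95% exact interval 0.199 to 0.643) and 0.133 of control under shRNF185.3 (0.0466 to 0.309), intervals that cover counting error only. The two-sided exact permutation test of CPM gave p = 0.0173 and 0.00433, or 0.026 and 0.013 after Benjamini-Hochberg adjustment over 3 comparisons, with 0.00216 the smallest p this design allows. Between the hairpins the ratio was 0.362 (0.117 to 0.963) and the exact permutation p was 0.0779. By batch the control sums were 20, 22 and 11 counts, those of shRNF185.1 were 6, 4 and 7, and those of shRNF185.3 were 2, 1 and 3, so the control was highest in each batch.

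Leaving out a batch leaves 4 libraries a group for Tmprss2, where the exact permutation test cannot go below 0.0286. Without batch 1 the ratios to control were 0.406 and 0.143 (adjusted exact permutation p 0.171 for both hairpins) and without batch 2 they were 0.459 and 0.191 (adjusted p 0.171 for both). Without batch 3 they were 0.267 and 0.0829 (adjusted p 0.0429 for both). When genes with at least 1 count in all were admitted to edgeR, the log2 fold change of Tmprss2 was -1.43 (adjusted p 0.0792) under shRNF185.1 and -2.82 (adjusted p 0.00297) under shRNF185.3. None of the 75-base stretches of its transcripts occurs exactly in an annotated transcript of another gene. Inexact matches and copies outside the annotation were not searched.

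Fkbp5 (ENSMUSG00000024222, chr17:28399094-28517527, minus strand, 9468 exonic bases) had the highest CPM of the 8 genes, at 78.3 ± 6.73 in control, 79.8 ± 8.63 under shRNF185.1 and 82.9 ± 3.09 under shRNF185.3 (SD, n = 6 each). The libraries of the 3 groups were intermingled, between 67.4 and 91.4 CPM. Log2 fold changes were 0.03 (95% interval -0.10 to 0.16, edgeR adjusted p 0.804) and 0.08 (-0.05 to 0.22, adjusted p 0.372). In batch 2 shRNF185.1 stood 0.34 above control, and in batches 1 and 3 it stood at -0.10 and -0.17. Without batch 2 its value was -0.13 (adjusted p 0.0843). Psca (ENSMUSG00000022598, chr15:74714839-74717069, plus strand, 860 exonic bases) had 5 counts in all, 1 in control, 1 under shRNF185.1 and 3 under shRNF185.3, and at most 1 in a library. This is under the floor of 3 counts in every library, so no fold change is given.

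Nr3c1, the glucocorticoid receptor, to which Fkbp5 also responds, was at 64.9 ± 6.19 CPM in control, 75.6 ± 5.20 CPM under shRNF185.1 and 71.6 ± 7.30 CPM under shRNF185.3 (SD, n = 6 each). Its log2 fold change was 0.22 (adjusted p 0.0243) under shRNF185.1, lost without batch 1 (0.14, adjusted p 0.359), and 0.15 (adjusted p 0.139) under shRNF185.3.

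A wider list of androgen-responsive genes moved in both directions. Of 41 listed genes, 34 were tested, and under shRNF185.1, 4 were called higher and 8 lower, where 14.6% of all genes were higher and 14.3% lower. With shRNF185.3, 6 were higher and 8 lower, where the shares of all genes were 14.2% and 13.1%. Their median log2 fold change was -0.04 and 0.02. Iqgap2, a scaffold protein, fell by 1.22 under shRNF185.1 and by 1.69 under shRNF185.3 on the log2 scale (edgeR adjusted p 0.000249 and 1.36e-05). Steap4, a metalloreductase, rose by 1.83 (adjusted p 0.000994) and 1.33 (adjusted p 0.0126), and its call was lost without batch 3 with both hairpins (1.30, adjusted p 0.0506 and 1.07, adjusted p 0.116) and without batch 1 under shRNF185.3 (1.48, adjusted p 0.0708). The call under shRNF185.3 was also lost with the libraries of a group and batch summed. The counts under shRNF185.1 were 4 higher and 4 lower with library size alone, and leaving out batch 1, 2 or 3 gave 2 and 4, 4 and 2, or 2 and 3. With shRNF185.3 the counts were 2 higher and 6 lower without batch 1, and 4 higher and 5 lower when batch 3 was left out.

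A list of steroid receptors and their cofactors also held 5-alpha reductases, and its lower counts include the reductase Srd5a1 with both hairpins. Of its 16 tested genes, 4 were higher and 4 lower under shRNF185.1 and 1 was higher and 4 lower under shRNF185.3, or 2 and 2 and 0 and 3 without batch 1. For these and the following lists, the shares of all genes called higher and lower were 14.6% and 14.3% under shRNF185.1 and 14.2% and 13.1% under shRNF185.3. Srd5a1, a 5-alpha reductase that converts testosterone to dihydrotestosterone, fell by 0.60 with either hairpin (edgeR adjusted p 1.24e-05 and 1.26e-05), from 18.3 ± 1.85 to 12.0 ± 0.936 and 12.0 ± 1.18 CPM. Among 10 tested genes of HSP90 and its receptor cochaperones, the partners of FKBP5, only Ppid was called, lower with both hairpins (-0.45, adjusted p 0.00512 and -0.45, adjusted p 0.00509). Without batch 2, 5 and 3 of the 10 were lower. The Ppid call was lost without batch 3 (-0.23, adjusted p 0.107 and -0.21, adjusted p 0.154) and, for shRNF185.1, without batch 1 (-0.44, adjusted p 0.0754). It was also lost for both hairpins with the libraries of a group and batch summed. Of 14 tested glucocorticoid-responsive genes, which include further genes that share their response with Fkbp5, 4 were higher and 1 lower under shRNF185.1 and 3 higher and 1 lower under shRNF185.3, with medians of 0.17 and 0.16. Tsc22d3, which encodes the glucocorticoid-induced leucine zipper protein, rose by 0.64 under shRNF185.3 (adjusted p 7.13e-05) and by 0.43 under shRNF185.1 (adjusted p 0.00243), the latter not called without batch 1 (0.31, adjusted p 0.0835) or batch 3 (0.36, adjusted p 0.0556). Angptl4, the gene called lower, stood at -0.73 (edgeR adjusted p 0.011) under shRNF185.1 and -1.46 (adjusted p 4.08e-05) under shRNF185.3. Its call under shRNF185.1 was lost without batch 2 (-0.29, adjusted p 0.152). Without batch 3 the median of the glucocorticoid list was 0.02 and -0.07. The higher calls of that list under shRNF185.1 were 1 without batch 1 and 8 without batch 2.

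The epithelial lineage lists around these factors held more genes that fell than rose. Of 10 tested luminal genes, 1 was higher and 4 lower under shRNF185.1 and 1 higher and 6 lower under shRNF185.3, and the median log2 fold change was -0.23 and -0.64. Among all genes tested, 14.6% were higher and 14.3% lower under shRNF185.1, and 14.2% and 13.1% under shRNF185.3. Without batch 2 the luminal count under shRNF185.1 was 3 higher and 4 lower and the median 0.37. Krt18, a keratin of simple epithelia, fell by 1.00 and 1.25 (edgeR adjusted p 2.34e-10 and 1.53e-11), and Cdh1, the epithelial cadherin, fell by 1.91 and 2.13 (adjusted p 1.37e-05 and 4.85e-06). Elf3, an epithelial transcription factor, rose by 0.83 and 0.97 (adjusted p 5.7e-09 and 6.66e-10). Of 5 tested luminal progenitor genes, 4 and 3 were lower and 0 higher, with Wfdc2 (-1.10 and -1.65) and Clu (-1.41 and -1.59), both secreted proteins, among them.

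Although Trp63 was higher, most basal genes that moved were lower. Of 13 tested basal genes, 1 was higher and 7 lower under shRNF185.1 and 1 higher and 6 lower under shRNF185.3, with a median of -0.42 in both, where 14.3% and 13.1% of all genes were lower. Without batch 3 the lower count under shRNF185.3 was 4. The summed level of the 19 listed basal genes overlapped between the groups. It was 660 to 843 CPM in control, 610 to 875 CPM under shRNF185.1 and 596 to 771 CPM under shRNF185.3. Perp, a desmosome protein known as a p63 target, fell by 2.49 and 2.43 (edgeR adjusted p 2.46e-08 and 4e-08), from 22.7 ± 5.89 CPM in control to 4.05 ± 1.25 and 4.21 ± 0.812 CPM. Jag2, a Notch ligand, fell by 1.22 and 1.04 (adjusted p 7.55e-07 and 4.38e-06). Of 6 tested neuroendocrine genes, 3 were higher and 0 lower under shRNF185.1 and 3 higher and 1 lower under shRNF185.3, where without batch 3 only 1 was higher, and where 14.6% and 14.2% of all genes were higher. Onecut2, a homeobox factor, rose by 1.56 and 1.15 (edgeR adjusted p 4.48e-07 and 1.7e-05). Chga, a defining marker of that fate, had at most 1 count in a library. Summed over 14 neuroendocrine genes, the level was 160 to 186 CPM in control, 162 to 188 under shRNF185.1 and 161 to 196 under shRNF185.3. The summed level of the 5 epithelial markers was 1429 to 1743 CPM in control, 881 to 1155 CPM under shRNF185.1 and 952 to 1021 CPM under shRNF185.3, and its part in the values of the 8 genes was not tested.

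**Figure D4:**
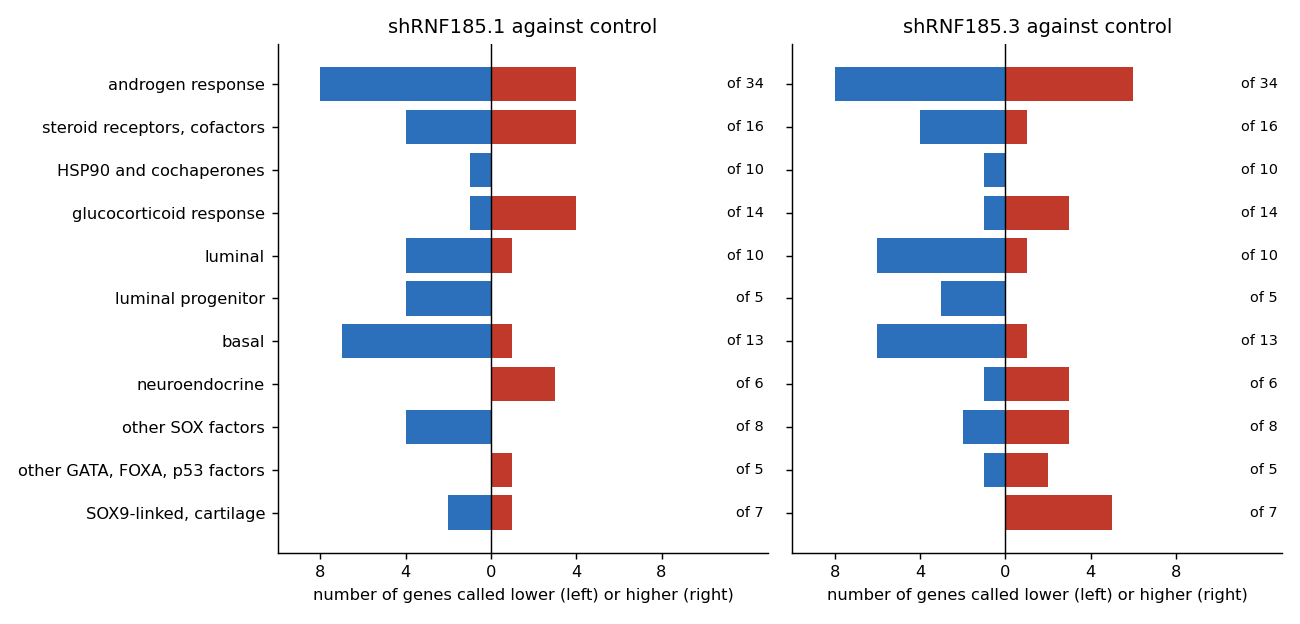
Number of genes called lower (bars to the left) and higher (bars to the right) in each list around the 8 genes, for shRNF185.1 and shRNF185.3 against control, with the number of genes tested at the right. Lower calls outnumber higher calls with both hairpins in the luminal, luminal progenitor, basal and androgen response lists. The same holds by 1 call for the HSP90 list. The list linked to SOX9 holds matrix genes and the factors Sox5 and Sox6. Of its 7 genes, 5 are higher and 0 lower under shRNF185.3, and 1 is higher and 2 lower under shRNF185.1. Of all genes tested, 14.6% were higher and 14.3% lower under shRNF185.1, and 14.2% and 13.1% under shRNF185.3.

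Relatives of the 8 genes were set beside them. Of the 5 tested GATA, FOXA and p53 family genes, Gata6 was at 3.46 ± 0.625, 4.15 ± 0.665 and 6.65 ± 0.838 CPM. It rose by 0.95 under shRNF185.3 (edgeR adjusted p 2.06e-05), stood at 0.26 (adjusted p 0.146) under shRNF185.1, and differed between the hairpins by 0.69 (adjusted p 0.00105). Like Gata2 it was thus higher under shRNF185.3 than under shRNF185.1, whereas Gata4 stood at 0.03 (adjusted p 0.832) under shRNF185.1 and -0.00 (adjusted p 0.979) under shRNF185.3. Foxa2, a relative of Foxa1 known from neuroendocrine prostate cells, fell by 0.94 under shRNF185.3 (adjusted p 0.000385) and stood at -0.01 (adjusted p 0.959) under shRNF185.1, and the hairpins differed by -0.93 (adjusted p 0.000949). Gata3 rose slightly, by 0.18 and 0.17 (adjusted p 0.0113 and 0.021), and was not called without batch 1 (0.15, adjusted p 0.166 for both) or without batch 3 (0.15 for both, adjusted p 0.129 and 0.138), nor under shRNF185.3 with no filter on low counts. In all, 1 gene of this list was higher and 0 lower under shRNF185.1 (14.6% and 14.3% of all genes), and 2 were higher and 1 lower under shRNF185.3 (14.2% and 13.1%).

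Of 8 tested SOX genes other than Sox2 and Sox9, 0 were higher and 4 lower under shRNF185.1 (14.6% and 14.3% of all genes), and 3 were higher and 2 lower under shRNF185.3 (14.2% and 13.1%). Between the hairpins 5 were higher under shRNF185.3 and 0 lower, where 7.72% of all genes tested were higher and 6.94% lower. Sox12, a SOXC factor, differed between the hairpins by 0.42 (edgeR adjusted p 0.00126) and Sox5, a SOXD factor, by 0.61 (adjusted p 0.0242). Without batch 2 neither was called (0.38, adjusted p 0.0547 for Sox12 and 0.57, adjusted p 0.165 for Sox5), and without batch 1 Sox5 was not called (0.61, adjusted p 0.154). The 5 genes were Sox5, Sox6, Sox11, Sox12 and Sox13, of which Sox6, Sox11 and Sox13 are named after their values were seen, and without batch 1 the count was 1. Without batch 2 the count lower under shRNF185.1 was 2. Sox21, which belongs to the same SOXB group as Sox2, fell by 1.31 and 1.47 (adjusted p 0.00161 and 0.000735) from a level of 1.30 ± 0.221 CPM.

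A list of genes linked to SOX9 in cartilage held collagens and other matrix genes known as its targets together with its partner factors Sox5 and Sox6, which are also counted among the SOX genes. Of 7 tested (4 collagen genes, the matrix gene Comp and these 2 factors), Col11a1 was higher and Col2a1 and Sox6 lower under shRNF185.1. Under shRNF185.3, Col2a1, Col9a3, Col11a1, Col11a2 and Sox5 were higher and 0 lower. Between the hairpins Col2a1, Col9a3, Col11a2, Sox5 and Sox6 were higher under shRNF185.3, and only 1 of the list without batch 1. Between the hairpins 7.72% of all genes tested were higher and 6.94% lower. Comp, Col2a1, Col9a3 and Col11a2 are named after their values were seen. Col11a1 rose by 2.08 and 1.60 against control (edgeR adjusted p 1.47e-06 and 3.27e-05), and its difference between the hairpins was -0.47 (adjusted p 0.15). Among 14 tested FKBP proteins, 2 were higher and 1 lower under shRNF185.1 and 4 higher and 2 lower under shRNF185.3. Called with both hairpins were Fkbp7, at 0.24 and 0.26 (edgeR adjusted p 0.034 and 0.0278), and Fkbp2, at -0.20 and -0.18 (adjusted p 0.012 and 0.0256). Neither was called without batch 1 with either hairpin. Fkbp1a fell by 0.61 under shRNF185.3 (adjusted p 4.78e-05) and stood at -0.19 (adjusted p 0.11) under shRNF185.1. Of all genes, 14.6% were higher and 14.3% lower under shRNF185.1 and 14.2% and 13.1% under shRNF185.3, so the FKBP counts were near the background or too small to be set apart from it. The FKBP counts without batch 1 were 0 and 0 under shRNF185.1 and 1 and 1 under shRNF185.3. Of 18 membrane serine proteases related to Tmprss2, only Tmprss6 was tested. It was higher by 1.32 under shRNF185.3 (adjusted p 0.00155), a call lost without batch 1 (1.12, adjusted p 0.063). Under shRNF185.1 it stood at 0.79 (adjusted p 0.0491) and was called in only 5 of 14 alternatives, with DESeq2, the batch covariate and the replicate block among those that lost it and adjusted p-values up to 0.433. A list around the Ly6 family, to which Psca belongs, had 10 tested genes. Of these, 1 was higher and 1 lower under shRNF185.1 and 2 higher and 0 lower under shRNF185.3, beside the same shares of all genes. The 2 higher under shRNF185.3 were Ly6i and Them6, and Them6 is a thioesterase superfamily gene outside the Ly6 family.

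For each of the 6 genes tested, the genes with the most similar log2 CPM over the 18 libraries were found among 10417 genes, as a description. All points share libraries, depth and batches. Traf3ip2 and Stx5a were nearest to Foxa1 (Pearson r 0.935 and 0.930) and Ank2 and Cotl1 to Gata2 (0.976 and 0.970). Slc30a9 and Lysmd1 were nearest to Sox2 (0.900 and 0.887) and Cdkn1a and Mnt to Sox9 (0.882 and 0.879). Laptm4a and C1s1 were nearest to Trp63 (0.924 for both) and Kdm8 and Kars to Fkbp5 (0.941 and 0.932). When deviations from the group means were used in place of the levels, r fell to 0.749 and 0.699 for the neighbours of Gata2, the gene with the largest group differences, and lay between 0.841 and 0.947 for the neighbours of the other 5 genes.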

How the data were processed

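Polyadenylated RNA of 18 libraries was sequenced as single-end reads of 75 bases from strand-specific libraries, per the labels' protocols. The authors deposited estimated counts for 47643 genes, named for the ComBat-Seq batch adjustment, of which 0.466% are not whole and which were rounded here. Whether the adjustment was told the groups is not given in the sources used here. Their table of library-scaled CPM, a deposited signal, equals those counts divided by TMM library sizes, holds 15386 genes, and lacks Tmprss2 and Psca, whose CPM were computed the same way. The submitters' processing notes name cutadapt 2.3, STAR 2.7.0d, RSEM 1.3.1 and the build mm10. A count design was planned and kept for these estimated counts.

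Counts were tested with edgeR 4.0.16 (R 4.3.3) by the quasi-likelihood F test with a mean per group, TMM scaling, a minimum count of 10 by filterByExpr and Benjamini-Hochberg adjustment over 14309 genes, called at an adjusted p under 0.05. The script was tested on simulated data. Tmprss2 was compared by exact permutation tests (scipy 1.17.1). Alternatives used limma 3.58.1 and DESeq2 1.42.0, other scalings and filters, batch terms, a GC and length offset and each batch left out. Gene positions come from the GENCODE M21 annotation (GRCm38) through the Ensembl identifiers, symbols matched 99.1% of identifiers, and promoters are from RefSeq (GRCm38.p6).

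The 8 genes and all lists were chosen with earlier results of these data known. Besides the 8 genes and Nr3c1, the rule allowed naming from each list up to 3 genes called the same way with both hairpins, ranked by the smaller log2 fold change among genes with a mean count of at least 50, filled by the smallest adjusted p for the mean of both hairpins. The 2 genes most like each of the 6 tested genes are named too. Hoxb13, Gata4, Krt14, Col1a2 and genes given as absent or at low counts are named outside it, after their values were seen. Totals ran from 22027395 to 43379662 counts, and a floor of 3 counts is 0.0701 to 0.133 CPM in a library, for counting error only. No pair of libraries of a group agreed within sampling noise (45 pairs, chi-square per gene 7.64 to 84.4). Some genes of the lists are not reported here.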

Additional observations from a re-analysis of the deposited data

Results flagged for a closer look

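Gata2 stands out because its response differed between the hairpins by a direct test. The log2 fold change of shRNF185.3 against shRNF185.1 was 0.98 (SE 0.12, edgeR adjusted p 1.43e-05), with Rnf185 at 5.80 and 5.81 CPM. All 6 shRNF185.3 libraries lay above the highest shRNF185.1 library, and the difference was 0.97, 1.01 and 0.94 within batches 1, 2 and 3. Over 16 alternatives it ran from 0.73 to 1.00, with adjusted p-values up to 0.00556. In 18 groups of libraries of the tested genes no library stood apart from the other 5 by Dixon's criterion, where chance gives about 1 in 20 groups, or 0.9.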

How the results depend on the processing

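Over 24 log2 fold changes of the 6 tested genes, 347 of 378 values under the alternatives kept direction and side of the threshold, 13 lost the call, 2 gained it and 16 turned direction. The causes were not tested. The values that turned lay between -0.23 and 0.20 on the log2 scale. For Fkbp5 they were -0.0049 (mean of both hairpins) and -0.039 (shRNF185.1) with the GC and length offset, -0.0060 and -0.041 with the replicate block and that offset, -0.051 and -0.13 without batch 2, and -0.0049 between the hairpins without batch 3. For Foxa1 they were -0.017 (mean), -0.010 (shRNF185.1) and -0.024 (shRNF185.3) without batch 3, and 0.036 between the hairpins without batch 1. For Sox9 they were 0.17 (mean), 0.14 and 0.20 without batch 2 and -0.067 between the hairpins without batch 3. For Trp63 the difference between the hairpins was -0.23 without batch 2.

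Counts of genes called moved by over 1.5 times only where a batch was left out. The mean of both hairpins gave 4701 genes, 2672 without batch 1 and 3106 without batch 3. For shRNF185.1 4141 became 2207 without batch 1. For shRNF185.3 3906 became 2120 without batch 1 and 2501 without batch 3. Between the hairpins 2098 became 753 without batch 1 and 1208 without batch 2. Of the 6 genes, the 2 called with shRNF185.1 became 0 without batch 1 and 1 without batch 3. These fits have 12 libraries in place of 18.

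With the replicate number as a block, 4304, 3811, 3578 and 1976 genes were called for the mean, shRNF185.1, shRNF185.3 and the hairpins against each other. Deviations of same-numbered libraries of different groups had a mean r of -0.0144 over 18 pairs (from -0.628 to 0.705), against -0.434 over the 18 pairs of other numbers in the same batch. Over the 72 pairs of other batches and other groups the mean r was 0.111. Same-numbered libraries thus had a higher mean r than other numbers of their batch and a lower one than libraries of other batches. Their range was wide and includes negative values. These values do not settle whether the numbers pair the libraries. The main fit took no pairing, and the block is given as an alternative. Among the 6 genes the block changed the call of Sox2 for the mean of both hairpins, from an edgeR adjusted p of 0.0234 to 0.0611 (log2 -0.18), and no other. Depth limits Tmprss2 and Psca most, with 76 and 5 counts in all. The comparison of Tmprss2 without each batch was added after seeing the data. The batch adjustment was made before deposit, and its effect on the spread between libraries was not tested.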
